A study of Mus musculus with 6 samples.

Results

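The nuclear genes for the subunits of oxidative phosphorylation were followed in mouse heart ventricle that carried or lacked Rbpms. Members were the rows of the deposited expression table whose symbol begins as those of the subunits of complexes I to V do (Nduf with a subunit letter and number, Sdha to Sdhd, Uqcr, Cyc1, Cox4 to Cox8, Atp5), without pseudogenes. The rule found 82 of 14004 genes, of which 35 belong to complex I, 4 to complex II, 9 to complex III, 18 to complex IV and 16 to complex V. Ndufa4, once counted with complex I, was placed in complex IV. Ndufa4l2, Cox7a2l and Atp5s carry family names without being standard structural subunits and were kept as relatives of complexes IV, IV and V. The samples were 6 libraries of polyadenylated RNA from ventricles of C57BL6 mice at postnatal day 1, 3 of wild type (WT) and 3 of an Rbpms knockout (Rbpms KO). Rbpms encodes an RNA-binding protein, and the series title ties it to noncompaction cardiomyopathy and to the division of heart muscle cells. The labels give neither the allele nor the number of animals in a library, and the p-values cover only the spread among the 6 libraries.

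Complexes I to IV pass electrons from NADH and succinate to oxygen, complexes I, III and IV pump protons across the inner mitochondrial membrane, and complex V, the ATP synthase, uses the proton gradient to make ATP. Complexes I, III, IV and V are assembled from subunits of both the nuclear and the mitochondrial genome, while all subunits of complex II are nuclear. The heart depends on this machinery, and around birth it turns from glycolysis towards oxidative metabolism and replaces some subunits of complex IV by isoforms specific to heart and skeletal muscle.

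The targeted transcript was nearly lost in the knockout. Rbpms measured 33.1, 35.7 and 38.1 RPKM (reads per kilobase of gene length per 1000000 reads) in WT and 0.594, 0.276 and 0.240 RPKM in Rbpms KO, a log2 change of -5.40 (limma, adjusted p = 5.31e-06). WT replicates 1 and 2 lay closest of all pairs of libraries, where the log2 ratio of the pair had an SD of 0.132 over 3677 genes averaging 10 RPKM or more, and every other pair 0.244 or more. Markers of the labelled tissue were high, with a summed level of 15505 to 16605 in WT against 11163 to 14871 RPKM in Rbpms KO for 8 genes of ventricular muscle cells, of which Myh7 rose and Myh6 fell. Some markers of other cells also differed by genotype. The 4 airway secretory markers, all called lower, summed to 668 to 953 in WT against 0.469 to 19.3 RPKM in Rbpms KO, and the 4 smooth muscle markers, of which 3 were called lower, to 842 to 994 RPKM against 171 to 252 RPKM. Of 5 endothelial markers 2 were called higher, with sums of 166 to 190 RPKM against 207 to 234 RPKM. Of 5 fibroblast markers 1 was called higher, and none of the 4 atrial, 4 macrophage and 4 blood markers was called. The blood markers summed to 714 to 2357 in WT, highest in replicate 3, against 669 to 884 RPKM in Rbpms KO. The part of these cells in the results below was not tested, and in bulk tissue fewer cells of a type cannot be told apart from less RNA per cell.

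Most subunit genes had similar levels with and without Rbpms. All 82 passed the filter on low values, with mean levels from 1.01 to 905 RPKM, and in 58 of them the group means lay within 10% of each other. Log2(RPKM + 0.5) was compared with limma over 12911 genes, and genes with a Benjamini-Hochberg adjusted p below 0.05 were called. Only Ndufs7 and Cox6b2 were called, both lower, that is 2 of 82 members, where 6.37% of all tested genes were called, 3.99% lower and 2.38% higher. At an unadjusted p below 0.05 there were 15 members, against 23.5% of all tested genes. The log2 change was below 0 in 52 of 82 members, against 56.0% of all tested genes. Its median over the members was -0.07 and over all tested genes -0.03. This order rested on single libraries: without Rbpms KO replicate 1 the medians were -0.01 and -0.05, without WT replicate 1 -0.04 and -0.04, and with any 1 library left out the members' median ran from -0.11 to -0.01. After median ratio scaling it was -0.03, with 45 of 82 below 0, against 0.0034 over all tested genes. The typical SD within a group was 6.59% of the mean in WT and 7.18% in Rbpms KO. The authors' deposited table, made with a count test, called 1 of the 82 members at a false discovery rate (FDR) below 0.05, Cox6a2, which was higher, while 11.1% of all genes in that table passed.

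**Figure D1:**
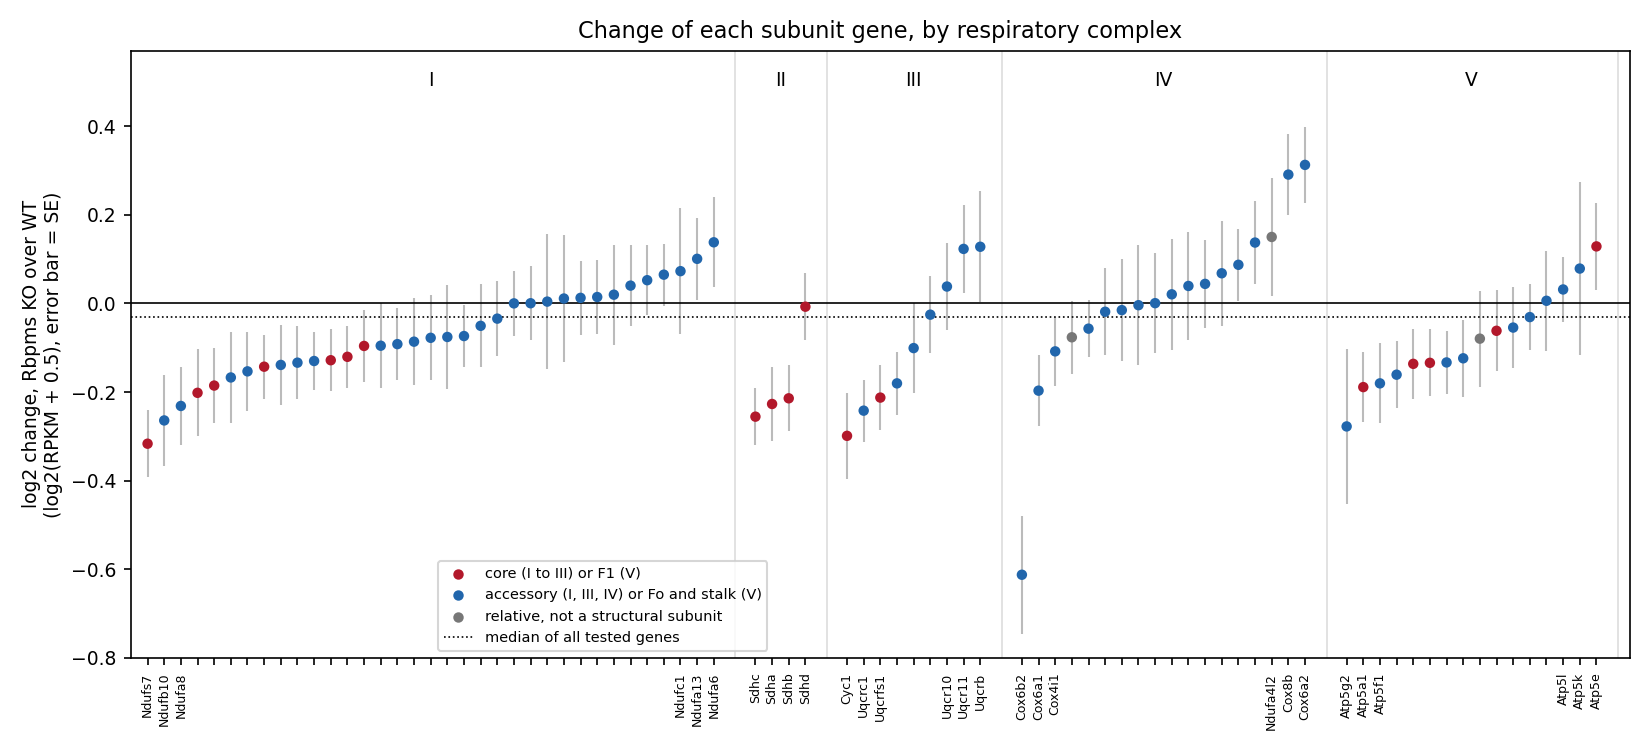
Log2 change of each of the 82 subunit genes in Rbpms KO over WT, ordered within complexes I to V, with the standard error from limma as bars, core or F1 subunits in red, accessory or Fo and stalk subunits in blue and relatives in grey, and the 3 lowest and 3 highest genes of each complex named. All red points of complexes I to III lie below 0, Cox6b2 stands lowest at -0.61, and Cox6a2 and Cox8b stand highest.

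The groups of libraries did not overlap in 24 members that were lower in Rbpms KO and in 2 that were higher, Cox6a2 and Cox8b. Among all tested genes 18.2% were lower and 11.6% higher without overlap. The lower count depended on scaling. It was 5 of 82 after each library was divided by its median ratio to the geometric mean over libraries (14% of all tested genes) and 12 of 82 after scaling to reads outside the mitochondrial genome (17.1% of all tested genes), while Cox6a2 and Cox8b stayed higher without overlap under both.

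In complex I, the NADH dehydrogenase, Ndufs7 fell and the other 34 genes were not called. Ndufs7 (ENSMUSG00000020153, GRCm38 chr10:80249121-80256794) encodes a core subunit that holds the last iron-sulfur cluster before ubiquinone. Its level was 26.0, 29.9 and 28.7 in WT against 22.1, 22.8 and 22.6 RPKM in Rbpms KO. Every knockout library lay below every WT library, with means of 28.2 ± 2.00 and 22.5 ± 0.379 RPKM (SD, n = 3 each) and a log2 change of -0.32 (SE 0.08, limma adjusted p = 0.048). The call was close to the threshold and rested on all libraries: without WT replicates 1, 2 or 3 the adjusted p was 0.0802, 0.229 and 0.0870, without Rbpms KO replicates 1, 2 or 3 it was 0.0729, 0.119 and 0.104, and after median ratio scaling 0.0839. The next lowest gene was Ndufb10, an accessory subunit of the membrane arm, with 141 ± 11.7 in WT against 118 ± 12.9 RPKM in Rbpms KO (SD, n = 3 each; log2 change -0.26, SE 0.10, limma adjusted p = 0.172). At the other end stood Ndufa6 and Ndufa13, accessory subunits with log2 changes of 0.14 (SE 0.10) and 0.10 (SE 0.09) and overlapping groups. Over the complex the median log2 change was -0.08, from -0.32 to 0.14. Lower without overlap were 9 of 35 genes, or 25.7%, against 18.2% of all tested genes. After median ratio scaling it was 1 of 35, or 2.86%, against 14% of all tested genes.

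Complex II is the succinate dehydrogenase shared by the respiratory chain and the citric acid cycle. Of its 4 genes 3 were lower without overlap, against 18.2% of all tested genes, and none was called. Sdhc, a membrane anchor, measured 69.5, 70.8 and 73.7 in WT against 58.4, 59.2 and 61.4 RPKM in Rbpms KO. The libraries within a group differed little, and the log2 change of -0.26 (SE 0.06) missed the threshold at a limma adjusted p of 0.0579, with 0.0501 to 0.217 over the alternatives. Sdha, the flavoprotein that oxidises succinate, measured 248, 243 and 212 in WT against 202, 193 and 205 RPKM in Rbpms KO (log2 change -0.23, SE 0.08, limma adjusted p = 0.147). Sdhb, the iron-sulfur subunit, named here after its values were seen, had means of 157 ± 2.82 and 136 ± 9.53 RPKM (SD, n = 3 each) and a log2 change of -0.21 (SE 0.07, limma adjusted p = 0.131). The other membrane anchor, Sdhd, had the highest level and nearly equal means, 268 ± 2.92 and 267 ± 17.6 RPKM (SD, n = 3 each). After median ratio scaling 1 of the 4 genes was still lower without overlap, against 14% of all tested genes. The log2 change of Sdhd was then 0.03.

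In complex III, the cytochrome bc1 complex, none of the 9 genes was called. Lower without overlap were 4, against 18.2% of all tested genes, and 2 after median ratio scaling, against 14%. Cyc1, the cytochrome c1 that hands electrons to cytochrome c, measured 134, 141 and 143 in WT against 100, 114 and 128 RPKM in Rbpms KO. Its knockout libraries spread widely below the WT range, with a log2 change of -0.30 (SE 0.10, limma adjusted p = 0.112). The scaffold subunit Uqcrc1 had a tighter spread, at 95.9, 99.9 and 100.1 in WT against 78.9, 83.1 and 88.1 RPKM in Rbpms KO (log2 change -0.24, SE 0.07, limma adjusted p = 0.0844). Uqcrfs1, the Rieske iron-sulfur protein, named after its values were seen, had means of 320 ± 6.69 and 276 ± 15 RPKM (SD, n = 3 each; log2 change -0.21, limma adjusted p = 0.130). The small accessory subunits lay on both sides of 0, with overlapping groups and no call. Uqcrb and Uqcr11 had log2 changes of 0.13 (SE 0.13) and 0.12 (SE 0.10). Uqcrq, named after its values were seen, had one of -0.10 (SE 0.10). Leaving out a library gave 0.040 to 0.24 for Uqcrb and 0.051 to 0.21 for Uqcr11, lowest without Rbpms KO replicate 3 and WT replicate 2 respectively. Uqcrh, the hinge protein, had the highest level of the complex, 338 ± 30.3 and 331 ± 10.7 RPKM (SD, n = 3 each).

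Sorted by role, the median log2 change was -0.20 over the core subunits of complexes I to III and -0.03 over the accessory subunits of complexes I and III. Core here means the 13 nuclear genes for the conserved subunits around the redox centres and the ubiquinone sites: 7 of complex I, the 4 of complex II, and Cyc1 and Uqcrfs1. The log2 change was below 0 in 13 of 13, and 10 were lower without overlap, against 18.2% of all tested genes, the exceptions being Ndufs8, Ndufs1 (both named after their values were seen) and Sdhd, while 1 of the 13, Ndufs7, was called. Of the 35 accessory genes of complexes I and III, 19 had a log2 change below 0, 6 were lower without overlap and none was called. After median ratio scaling 12 of the 13 core genes were below 0, Sdhd being the exception, with a median of -0.16 and 3 lower without overlap (23.1%, against 14% of all tested genes), and the accessory genes had a median of 0.01 with 1 lower without overlap. After scaling to reads outside the mitochondrial genome 5 core and 4 accessory genes were lower without overlap, against 17.1% of all tested genes. Leaving out a library gave 12 or 13 core genes below 0 and medians from -0.25 to -0.14, against medians from -0.10 to 0.01 for the accessory genes. No test of the difference between the roles was made.

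Gene length differed between the roles too, with 8 of 13 core genes and 11 of 35 accessory genes longer than 2 kb in the deposited table. The median log2 change was 0.01 over the 22 members of up to 1 kb, -0.07 over the 30 of 1 to 2 kb and -0.13 over the 30 longer ones. Across the 82 members, which share libraries and scaling, Spearman's rho between log2 change and listed length was -0.392, as a description, and 0.004 between log2 change and mean level. All tested genes had medians of 0.01 up to 1 kb, -0.04 from 1 to 2 kb and -0.03 above, so they shared the first step and not the second. Their share lower without overlap was 10.9%, 17.4% and 18.6% in these classes, against 9.09%, 23.3% and 50.0% of the members. Of all tested genes over 2 kb that averaged 10 RPKM or more, 22.1% were lower without overlap, with a median of -0.01. Among members over 2 kb the 8 core genes had a median of -0.18 and the 11 accessory genes of complexes I and III a median of -0.10. Among those up to 2 kb the medians were -0.20 over 5 core genes and 0.00 over 24 accessory genes. Libraries also differed within a genotype: relative to the WT mean, the median of the 22 shortest members was 0.10 in WT replicate 1 and -0.11 in WT replicate 2, and in Rbpms KO it was -0.10 in replicate 1 and 0.10 in replicate 3. The part of length and of library differences in the order of the roles was not tested.

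Complex IV, the cytochrome c oxidase, held the largest fall of the 82 genes and also the only 2 of them that were higher without overlap. Its catalytic core is mitochondrially encoded, so all nuclear genes here are accessory. Cox6b2 (ENSMUSG00000051811, chr7:4751792-4753094), known as the testis form of a subunit that faces cytochrome c, measured 1.76, 1.46 and 1.62 in WT against 0.887, 0.701 and 1.08 RPKM in Rbpms KO. It fell by 0.61 on the log2(RPKM + 0.5) scale (SE 0.13, limma adjusted p = 0.0359), a scale that understates the change of so low a gene. The authors' deposited table gave it an FDR of 0.0574. Leaving out WT replicates 1, 2 or 3 ended the limma call (adjusted p = 0.147, 0.123 and 0.0709), as did leaving out Rbpms KO replicates 1 or 2 (0.0557 and 0.104). Against its partner this is a minor transcript, 0.309% of the summed RPKM of Cox6b1 and Cox6b2 in WT and 0.166% in Rbpms KO, and Cox6b1 had the highest level of the complex, 522 ± 57.2 and 536 ± 26.4 RPKM (SD, n = 3 each). Cox4i1, the form of subunit 4 found in nearly all tissues, made up 98.9 to 99.2% of the Cox4i pair in every library. It measured 421, 381 and 374 in WT against 359, 364 and 368 RPKM in Rbpms KO (log2 change -0.11, limma adjusted p = 0.443), while Cox4i2, the form induced by low oxygen, stood at 3.65 ± 0.590 and 3.63 ± 0.478 RPKM (SD, n = 3 each).

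Subunits 6a, 7a and 8 each exist in a form widespread in tissues (Cox6a1, Cox7a2, Cox8a) and a form of heart and skeletal muscle (Cox6a2, Cox7a1, Cox8b), and in the ratio within a pair the scaling of a library cancels. Cox6a2 (ENSMUSG00000030785, chr7:128205435-128206387) measured 199.6, 199.0 and 197 in WT against 225, 243 and 274 RPKM in Rbpms KO. The WT libraries were nearly identical and all knockout libraries lay above them. The log2 change was 0.31 (SE 0.09) with a limma adjusted p of 0.0743, and an FDR of 0.0345 in the authors' deposited table with a log2 change of 0.36. Leaving out Rbpms KO replicate 1 brought the limma adjusted p to 0.0386. Its partner Cox6a1 measured 179, 159 and 176 in WT against 140, 156 and 152 RPKM in Rbpms KO, lower without overlap but not called (log2 change -0.20, SE 0.08, limma adjusted p = 0.189).

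Set against each other, the muscle form made up 52.8, 55.7 and 52.8% of the Cox6a pair in WT and 61.7, 60.9 and 64.3% in Rbpms KO. The means were 53.7 ± 1.66% and 62.3 ± 1.76% (SD, n = 3 each), and the groups did not overlap. The log2 ratio of Cox6a2 to Cox6a1 was 0.51 higher in Rbpms KO (SE 0.08, p = 0.1 in a two-sided exact permutation test, which cannot go lower with groups of 3, and 0.3 adjusted over the 3 pairs), so the design cannot place it past 0.05. Leaving out a library gave differences from 0.45 to 0.57.

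For Cox8b against Cox8a the muscle share was 30.2, 27.1 and 25.5% in WT and 33.7, 29.5 and 32.2% in Rbpms KO, so Rbpms KO replicate 2 lay within the WT range. The log2 ratio was 0.29 higher in Rbpms KO (SE 0.13, exact permutation p = 0.2, adjusted 0.3), and 0.21 to 0.38 with a library left out. Cox8b itself (chr7:140898945-140900446) measured 98.2, 79.8 and 87.7 in WT against 102, 108 and 114 RPKM in Rbpms KO. Its groups did not overlap, and the log2 change of 0.29 was not called (SE 0.09, limma adjusted p = 0.104). Cox8a had nearly equal means, 233 ± 21.3 and 233 ± 29.2 RPKM (SD, n = 3 each).

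For Cox7a1 against Cox7a2 the muscle share was 22.4, 19.2 and 22.4% in WT and 20.8, 19.96 and 19.6% in Rbpms KO, with overlapping groups and a log2 ratio of -0.10 (SE 0.10, exact permutation p = 0.4, adjusted 0.4). That difference was -0.20 without WT replicate 2, -0.06 without WT replicate 1 and -0.05 without WT replicate 3. Cox7a1 measured 55.4 to 76.5 in WT and 65.1 to 67.5 RPKM in Rbpms KO, and Cox7a2 247 ± 16.4 and 263 ± 13.8 RPKM (SD, n = 3 each). Among these 3 pairs the muscle form was the larger share for subunit 6a in all 6 libraries and the smaller for 7a and 8. Of 8 listed markers of skeletal muscle, which shares these isoforms, 4 were in the table. They summed to 4.45 to 28.2 RPKM, highest in Rbpms KO replicate 1. Of 5 listed markers of brown fat 2 were in the table. Their sums were 7.76 to 9.25 in WT and 8.06 to 10.5 RPKM in Rbpms KO, highest in Rbpms KO replicate 3. Cox6a2 and Cox8b were highest in Rbpms KO replicate 3 and Cox7a1 in WT replicate 1. The part of skeletal muscle or brown fat in these isoform levels was not tested.

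**Figure D2:**
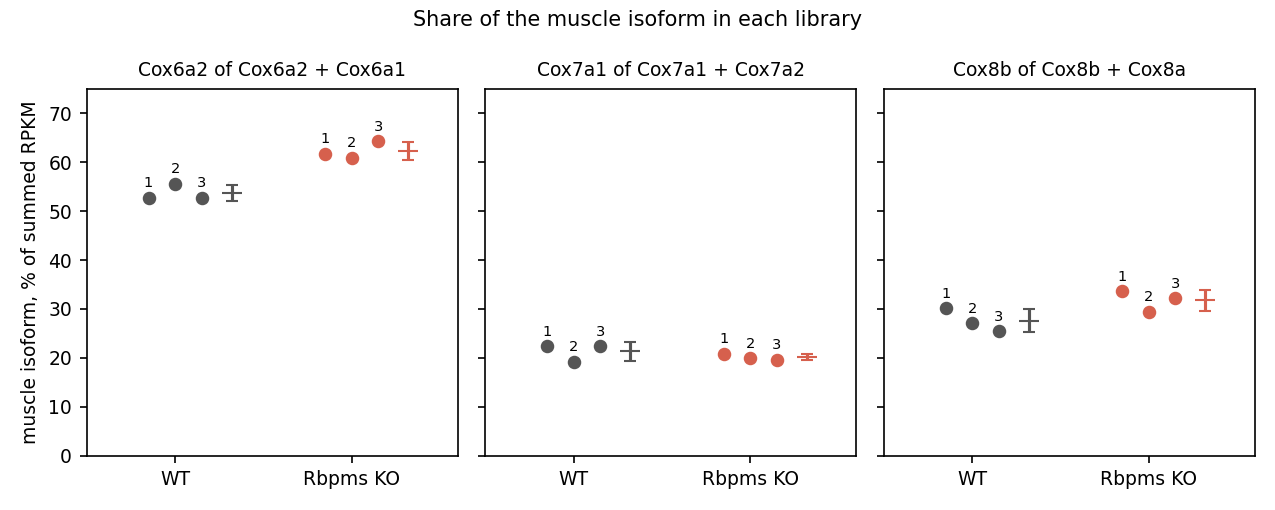
Share of the muscle isoform in the summed RPKM of each isoform pair of complex IV, one point per library with its replicate number, and the mean with SD beside them. The Cox6a2 share lies at 52.8 to 55.7% in WT and 60.9 to 64.3% in Rbpms KO, while the shares of Cox7a1 and Cox8b overlap between the groups.

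The start regions of a muscle gene, of its widespread partner and of Cox6a1 are shown so that the motifs they hold can be set beside each other. Each line below gives 250 bases before and 30 bases after the start (RefSeq, GRCm38.p6, minus strand), at chr7:140900417-140900696 for Cox8b, chr19:7217587-7217866 for Cox8a and chr5:115348929-115349208 for Cox6a1. Capitals mark the motifs found on either strand. They are the E-box CAGCTG, bound by skeletal muscle factors of the MyoD family, and the TATA box TATAAA. Also marked are the site of the mitochondrial regulator NRF1 (GCGCA and GCGC with any 1 base between) and the Ets site CCGGAAG. The Ets site reads CTTCCGG on the other strand.
Cox8b: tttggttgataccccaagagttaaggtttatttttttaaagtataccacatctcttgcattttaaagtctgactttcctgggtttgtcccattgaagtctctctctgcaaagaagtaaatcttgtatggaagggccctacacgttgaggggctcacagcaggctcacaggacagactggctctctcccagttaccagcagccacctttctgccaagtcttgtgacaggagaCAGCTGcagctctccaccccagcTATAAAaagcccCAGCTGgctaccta
Cox8a: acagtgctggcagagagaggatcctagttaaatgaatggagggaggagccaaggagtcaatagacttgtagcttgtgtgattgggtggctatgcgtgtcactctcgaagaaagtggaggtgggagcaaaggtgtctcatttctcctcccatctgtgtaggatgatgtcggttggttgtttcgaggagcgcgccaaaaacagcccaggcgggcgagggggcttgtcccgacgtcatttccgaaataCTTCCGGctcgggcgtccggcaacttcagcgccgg
Cox6a1: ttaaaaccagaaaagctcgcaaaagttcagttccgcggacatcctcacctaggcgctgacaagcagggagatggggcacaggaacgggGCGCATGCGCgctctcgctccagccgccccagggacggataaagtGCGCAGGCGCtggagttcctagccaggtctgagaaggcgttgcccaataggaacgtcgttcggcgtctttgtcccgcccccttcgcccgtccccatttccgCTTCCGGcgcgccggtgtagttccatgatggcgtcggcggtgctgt

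The muscle gene Cox8b held 2 E-boxes and 1 TATAAA match and no NRF1 or Ets site. Its TATAAA match and 1 of the E-boxes lay within the 30 bases after the listed start. That match thus did not stand before this start, where a TATA box lies. The partner Cox8a held 1 Ets site, and Cox6a1 held 2 NRF1 sites and 1 Ets site. Neither Cox8a nor Cox6a1 held an E-box or a TATAAA match. The Cox7a pair did not show this difference, since the start regions of the muscle gene Cox7a1 and of Cox7a2 held none of these 4 motifs. Over the 65 members with a RefSeq entry, Cox6a2 not among them, which gave 70 start regions, the NRF1 site occurred in 24.3% and the Ets site in 22.9%, against 4.41% and 8.45% of 32851 mouse start regions of the same length. E-boxes occurred in 6 and TATA boxes in 7 of the members' 70 regions, against 14.9% and 13.1% of all regions. The nuclear receptor site TNAAGGTCA, bound by estrogen-related receptors, was in 2 of the 70 (2.86%) and in 409 of all regions (1.245%). The MEF2 site, CTA and TAG with any 4 bases between, was in 1.43% against 3.50%. A match is a run of letters and does not show that a factor was bound.

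In complex V, the ATP synthase, none of the 16 genes was called. Lower without overlap were 5 as deposited, or 31.2%, against 18.2% of all tested genes. After median ratio scaling there were 0, against 14% of all tested genes. Atp5a1, the alpha subunit of the catalytic head, had the highest level of all 82 members, at 971, 983 and 939 in WT against 826, 838 and 873 RPKM in Rbpms KO. Every knockout library lay below the WT range, with a log2 change of -0.19 (SE 0.08, limma adjusted p = 0.202). Atp5b and Atp5c1, the beta and gamma subunits of the head, named after their values were seen, measured 819 to 881 and 451 to 490 RPKM in WT, and 769 to 790 and 414 to 443 RPKM in Rbpms KO, also without overlap or call. The small epsilon subunit of the head, Atp5e, had a log2 change of 0.13 (SE 0.10, limma adjusted p = 0.468). Atp5k, subunit e of the membrane part, stood at 0.08 (SE 0.20) and varied widely within WT, with 194 RPKM in replicate 1 against 112 and 130 RPKM in the others. The membrane ring of subunit c is encoded by 3 genes for the same mature protein, and Atp5g3 supplied 91.4 to 92.3% and Atp5g1 7.50 to 8.20% of their summed RPKM in the 6 libraries. Atp5g2, the third of them, was the lowest of all members, at 0.907 to 1.43 in WT and 0.589 to 1.01 RPKM in Rbpms KO (log2 change -0.28, SE 0.17, limma adjusted p = 0.383).

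Summed over its genes, complex V measured 3625 ± 140 in WT against 3320 ± 135 RPKM in Rbpms KO (SD, n = 3 each), a difference of -8.41%. The WT libraries lay at 3524 to 3785 RPKM and the knockout libraries at 3193 to 3461 RPKM, but after median ratio scaling the ranges overlapped, at 3412 to 3785 and 3103 to 3633. Complex II summed to 731 ± 22.2 and 662 ± 32.1 RPKM (SD, n = 3 each), also apart as deposited and overlapping after that scaling. The sums of complexes I, III and IV differed by -5.44%, -4.80% and 1.93%, less than the range of libraries within a group. Relative to the WT mean, the median of all 82 members was 0.07, -0.06 and -0.02 in WT replicates 1, 2 and 3 and -0.14, -0.07 and 0.04 in Rbpms KO replicates 1, 2 and 3 on the log2 scale, so Rbpms KO replicate 3 lay among the WT libraries.

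**Figure D3:**
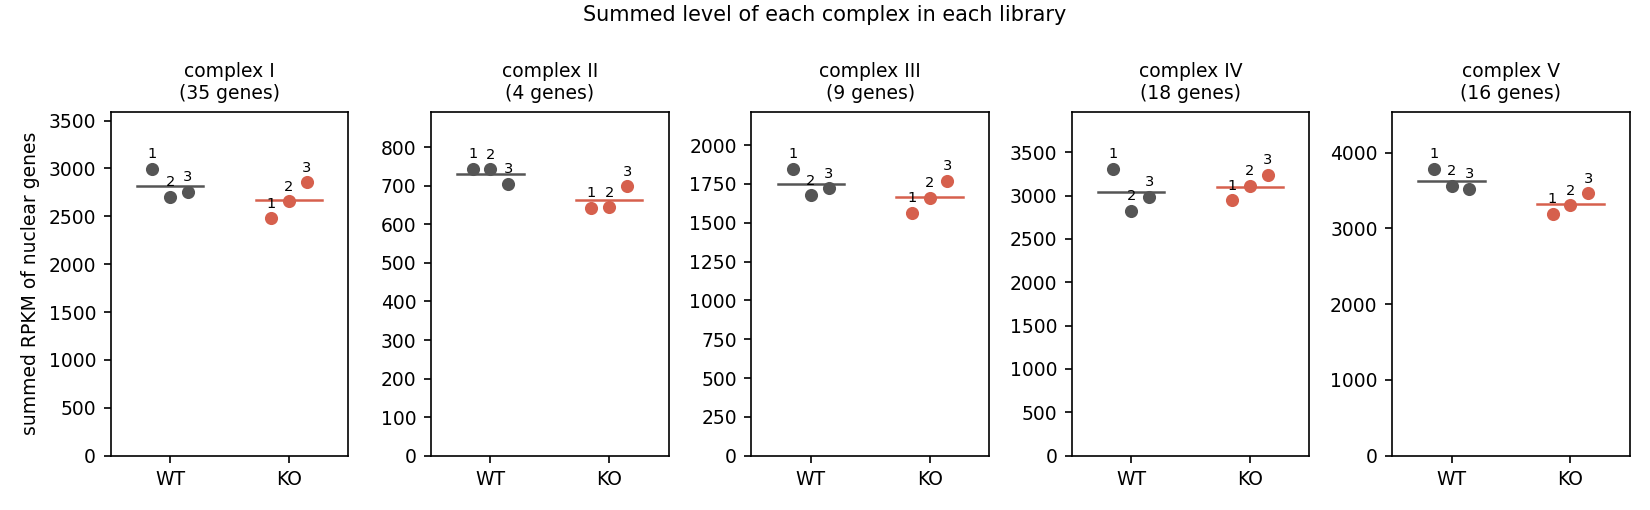
Summed RPKM of the nuclear genes of each complex in each library, numbered by replicate, with the group mean as a line. As deposited, and not after either other scaling, complexes II and V have ranges apart, 705 to 744 against 643 to 699 RPKM for complex II and 3524 to 3785 against 3193 to 3461 RPKM for complex V.

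Splicing of the subunit genes was read from the authors' deposited tables, which hold inclusion levels for 2 sets of 3 libraries without saying which genotype a set is. The tables listed 203 events in 60 member genes, of which 193 had at least 10 junction reads per library on average. Of these, 2 passed the authors' FDR of 0.05, where 1.35% of all 39201 listed events and 1.36% of the skipped exons did, and both concerned 1 exon of Atp5j, the gene of coupling factor 6 in the stalk of the ATP synthase. The exon is 55 bases long (chr16:84833820-84833874, minus strand) and is annotated as untranslated in 1 transcript. Its inclusion was 20.1, 16.9 and 16.9% in the first set and 7.5, 8.7 and 8.0% in the second, on 994 junction reads per library on average (means 18.0 ± 1.85% and 8.07 ± 0.603%, SD, n = 3 each, FDR listed as 0). The sets did not overlap. Measured with another upstream exon, where 126 reads per library were available, inclusion was 96.3, 88.9 and 93.4% in the first set and 72.2, 90.8 and 71.0% in the second (FDR 0.00747), and here the sets overlapped. With yet another upstream exon the means were 98.7% and 93.7% (FDR 0.364). The gene's level overlapped between the genotypes, at 97.0 ± 13.2 and 97.1 ± 8.78 RPKM (SD, n = 3 each).

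Another exon of the same enzyme showed no detectable difference between the sets. The gamma subunit gene Atp5c1 has a 37-base cassette exon that holds a stop codon and is known to be left out in heart and skeletal muscle. The exon is given because its inclusion changes the end of the protein (GRCm38 chr2:10056770-10056806, minus strand, the stop codon in capitals).
Atp5c1 exon: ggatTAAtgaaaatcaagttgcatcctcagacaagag
Inclusion was 4.4, 4.4 and 5.9% in the first set and 4.9, 5.3 and 5.1% in the second (FDR 1 in the authors' deposited table, 812 junction reads per library on average). The sets overlapped, and the exon was left out of most transcripts in every library. In Ndufv3, whose long exon adds to an accessory subunit of complex I, the 1092-base exon was included in 9.27% and 8.03% of transcripts (FDR 1).

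**Figure D4:**
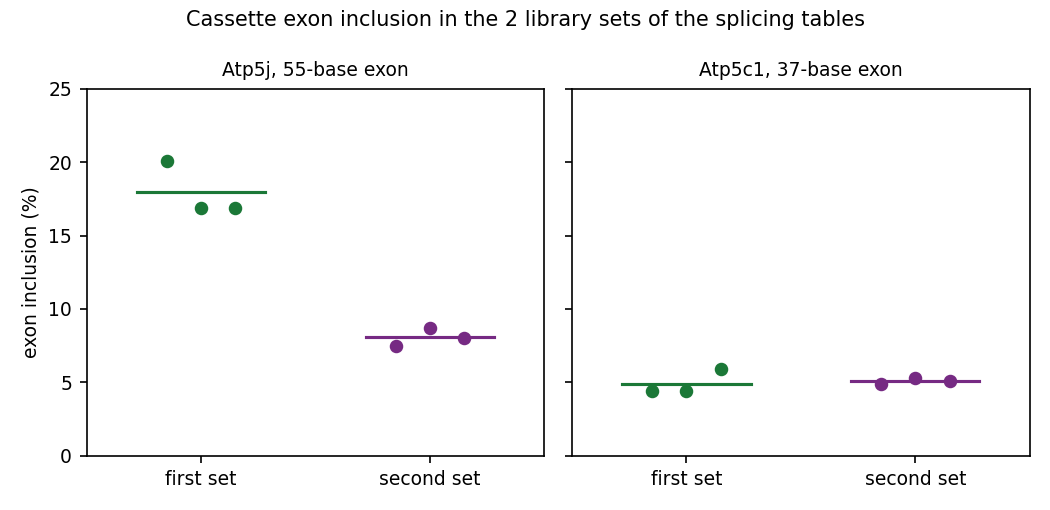
Inclusion of the Atp5j and Atp5c1 cassette exons in percent, one point per library, in the first and second set of the authors' splicing tables, whose genotypes the tables do not name. The Atp5j exon lies at 16.9 to 20.1% in the first set and 7.5 to 8.7% in the second, and the Atp5c1 exon at 4.4 to 5.9% in both.

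Genes that work with the nuclear subunits were compared from lists. The 13 mitochondrially encoded subunits had a median log2 change of 0.00, from -0.27 to 0.14, none was called and none was without overlap, and mitochondrial genes took 19.4 to 23.2% of the reads of a library. Assembly factors, which insert cofactors and join subunits without staying in the complex, held 7 called genes. Of 50 listed, 47 were in the table and 46 were tested. The log2 change was below 0 in 42 of 46 (40 after median ratio scaling), against 56.0% of all tested genes, with a median of -0.24. Lower levels without overlap were seen in 21, or 45.7%, against 18.2% of all tested genes, and in 16, or 34.8%, against 14% after that scaling. Of the 46, 6 were called lower and 1 higher, against 3.99% and 2.38% of all tested genes. The genes for subunits and partners that the naming rule misses, 8 in number, had no call.

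Among assembly factors of complex I, Foxred1 measured 15.8, 16.1 and 14.1 in WT against 10.99, 9.65 and 10.1 RPKM in Rbpms KO (log2 change -0.56, SE 0.09, limma adjusted p = 0.0109). It encodes an oxidoreductase needed for assembly of the complex. Ecsit measured 11.5, 11.9 and 12.2 in WT against 8.08, 8.52 and 8.80 RPKM in Rbpms KO (log2 change -0.46, SE 0.08, limma adjusted p = 0.0130), and Timmdc1 had a log2 change of -0.48 (adjusted p = 0.033). Both belong to the complex that builds the membrane arm. Lyrm7, which delivers the Rieske protein to complex III, fell by 0.46 (limma adjusted p = 0.0403). For complex IV, Cmc2 and Coa5 fell by 0.56 and 0.49 (limma adjusted p = 0.0296 and 0.0335), while Cox19, a copper-handling protein, rose by 0.40 on the log2 scale, at 5.86 ± 0.138 in WT against 7.88 ± 0.559 RPKM in Rbpms KO (SD, n = 3 each; limma adjusted p = 0.0342). These calls depended on single libraries. In the whole list 6 genes were called lower, against 0 without WT replicate 1 or WT replicate 2 and 5 without WT replicate 3. Leaving out Rbpms KO replicate 1, 2 or 3 gave 4, 2 and 6, and median ratio scaling 3. The genes were not always the same: Lyrm7 and Cmc2 lost the call without WT replicate 3, Lyrm7 and Coa5 without Rbpms KO replicate 3. Over all genes the calls went from 822 to 237 and 192 without WT replicates 1 and 2 respectively. With any 1 library left out the median of the list ran from -0.27 to -0.19. With WT replicates 1 and 2 averaged no assembly factor was called, and with the replicate block 2 were called lower and 0 higher. Cox19 was called without Rbpms KO replicate 1 but not without any other library.

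Of 14 regulators of mitochondrial biogenesis, all tested, 2 were called lower and none higher, against 3.99% and 2.38% of all tested genes. The log2 change was below 0 in 8 and above 0 in 6. Without overlap 4 were lower and 3 higher, against 18.2% and 11.6% of all tested genes. Ppargc1b, a coactivator of oxidative genes, measured 9.62, 10.2 and 9.67 in WT against 5.61, 6.75 and 6.18 RPKM in Rbpms KO (log2 change -0.63, SE 0.09, limma adjusted p = 0.00747). Esrra, the nuclear receptor ERR alpha that works with such coactivators, measured 14.2, 15.8 and 13.3 in WT against 10.2, 11.2 and 10.8 RPKM in Rbpms KO (log2 change -0.40, SE 0.09, limma adjusted p = 0.0352). In both genes every knockout library lay below every WT library. Ppargc1a, the related coactivator, named after its values were seen, stood at 28.9 in WT against 39.8 RPKM in Rbpms KO. It was higher without overlap but not called (log2 change 0.43, limma adjusted p = 0.2). The calls in this list were 1 without WT replicate 1, 0 without WT replicate 2, 2 without WT replicate 3, and 1 without each of the Rbpms KO replicates, as after median ratio scaling.

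**Figure D5:**
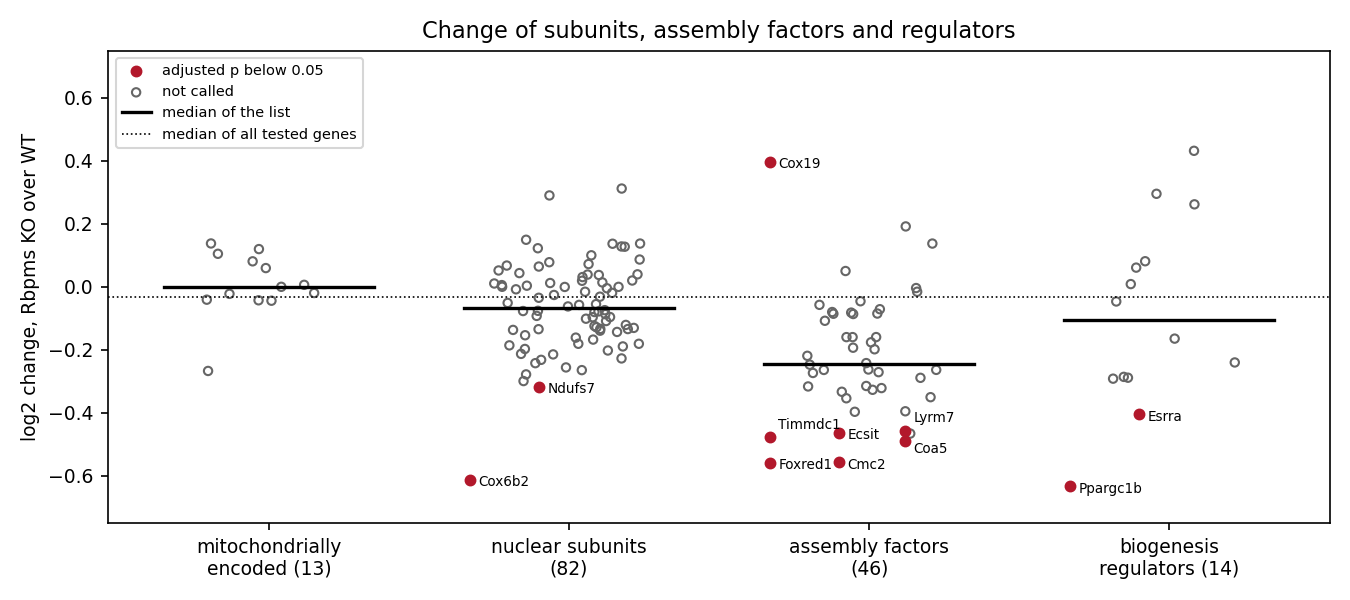
Log2 change in Rbpms KO over WT of mitochondrially encoded subunits, nuclear subunits, assembly factors and regulators, 1 point per gene, called genes filled and named, with the median of each list as a line. The medians are 0.00, -0.07, -0.24 and -0.11.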

How the data were processed

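Polyadenylated RNA of 6 ventricle libraries was sequenced with a stranded kit, per the labels' protocols. Per the submitters' processing notes, the authors used featureCounts 1.6.0, edgeR 3.30.1 and FastQC 0.11.4 with the mouse build GRCm38 (mm10), and the aligner is not given in the sources used here. The deposited expression values were RPKM, scaled by the authors so that RPKM times the listed length summed to 1000000 over the listed genes of a library. Reads per library were not given, so the depth is unknown. The authors' deposited comparison held log2 fold changes, a likelihood ratio score and a p-value and FDR per gene, per the file headers. The authors' splicing tables, named after rMATS, held inclusion levels, a difference score and a p-value and FDR per event, per the file headers. In many of their cells the 3 read counts had lost their commas, and they were separated so as to give the printed inclusion levels. Of 406 cell pairs of member events 143 allowed more than 1 reading, but those of the Atp5j and Atp5c1 exons allowed 1.

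A gene was tested where 3 or more of the 6 libraries reached 0.5 RPKM, which kept 12911 genes. The fit was limma 3.58.1 (R 4.3.3) on log2(RPKM + 0.5), its variance trend set by mean level, and p-values were adjusted after Benjamini and Hochberg over all genes tested. The script was tested on simulated data. Isoform ratios were compared with exact permutation tests. Positions came from GENCODE mouse release M21. Alternatives were pseudocounts of 0.1 and 1, other filters and scalings, leaving out each library, a replicate block, and WT replicates 1 and 2 averaged. The scaling to reads outside the mitochondrial genome was chosen after seeing the data, and the members, roles and gene lists were chosen with earlier results of these data known. Genes named were the called ones, the isoform pairs, the highest and the 2 most raised and 2 most lowered of each complex, called genes of the pathway lists, and those said to be named after their values were seen.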

Additional observations from a re-analysis of the deposited data

How the results depend on the processing

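Members called numbered 2 with either other pseudocount, either other filter and scaling to reads outside the mitochondrial genome, 1 (Cox6b2) after median ratio scaling, 0 with WT replicates 1 and 2 averaged, and 0 to 1 when a library was left out. Over all genes the count was 822, against 213 with WT replicates 1 and 2 averaged and 192 to 868 when a library was left out, and 724 to 979 under the other settings without a block. Same-numbered replicates did not deviate together (r of 0.213, -0.270 and 0.122 over genes). These deviations were taken from the mean of each group of 3, so the r values depend on each other. They cannot settle whether the numbers pair the libraries. With the replicate block 545 genes and 0 members were called, the lowest adjusted p of a member being 0.0527, and the isoform differences were 0.51, -0.10 and 0.29 (exact permutation p = 0.25, 0.5 and 0.25). All 3 isoform differences kept their sign in every alternative run. For single genes 481 values kept direction and side of the threshold, 68 in 11 genes lost the call, 1 gained it, and 23 in 8 uncalled genes near 0 changed sign. After median ratio scaling these were Cox7a1 (0.024), Cox4i2 (0.031), Sdhd (0.032) and Uqcrh (0.014), after scaling outside the mitochondrial genome Cox4i2 (0.0010), and with WT replicates 1 and 2 averaged Cox8a (-0.035). With a library left out the ranges were -0.15 to 0.082 for Cox7a1, -0.078 to 0.10 for Cox8a, -0.069 to 0.11 for Cox4i2, -0.059 to 0.034 for Sdhd, -0.069 to 0.047 for Uqcrh, -0.024 to 0.13 for Cox6b1, -0.090 to 0.30 for Atp5k and -0.089 to 0.11 for Atp5j. The cause was not tested. Counting junction and exon reads left 2 events. The depth is unknown, so counting error could not be given.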
